A study of Mus musculus with 9 samples.

Results

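Pleiotrophin and midkine are the members of a small family of secreted, heparin-binding growth factors, and syndecans and glypicans are the cell surface proteins whose heparan sulfate chains hold such factors at the membrane. The 10 genes described here are the ligands Ptn and Mdk, the syndecans Sdc1, Sdc2, Sdc3 and Sdc4, and the glypicans Gpc1, Gpc3, Gpc4 and Gpc6, out of 19933 genes measured. They were chosen by name, with earlier results of these arrays known, and of several probes for a gene the rule takes the one with the highest mean. Every one of the 10 had a single probe, so that no measured value decided which probe was used. The p-values below describe each difference against the spread between arrays and are not independent evidence for the choice of genes.

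The arrays hold RNA from 3 preparations of mouse heart cells with 3 biological replicates each: adult cardiac fibroblasts, embryonic cardiac fibroblasts, and embryonic cardiomyocytes positive for Nkx-YFP, a reporter of a cardiac lineage gene. The series set out to find fibroblast factors that act on the division of myocytes. The sources used here do not give strain, sex, adult age, embryonic stage or any time in culture. RNA was measured on Affymetrix mouse Gene 1.0 ST arrays, and all values are RMA values. They were taken to be on a log2 scale, on which 1 unit is a doubling.

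Pleiotrophin and midkine bind sulfated sugar chains through basic regions and signal through several receptors, among them the receptor tyrosine phosphatase Ptprz1 and the tyrosine kinase Alk. Both are widely produced in embryonic mesenchyme and decline in most tissues after birth. Syndecans cross the membrane and reach the cytoskeleton through short tails, while glypicans are anchored by a lipid and modulate hedgehog, Wnt, BMP and FGF signals.

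The arrays of a group resembled each other, with mean correlations over all probes of 0.970 to 0.981 within the adult fibroblasts, 0.990 to 0.992 within the embryonic fibroblasts and 0.994 within the cardiomyocytes. Adult replicate 3 had the lowest of these values, and its SD over probes was 1.71, where the other arrays had 1.83 to 1.90. The labels were checked against markers. The mean of 12 fibroblast markers was 10.50 to 10.74 in adult fibroblasts, 9.69 to 9.94 in embryonic fibroblasts and 8.36 to 8.59 in cardiomyocytes. The mean of 12 cardiomyocyte markers was 7.82 to 8.22 in adult fibroblasts, 10.95 to 11.69 in embryonic fibroblasts and 12.52 to 12.63 in cardiomyocytes, so the arrays labelled embryonic fibroblast lay nearer to the cardiomyocytes than to the adult fibroblasts in this list. Of these markers, Tnnt2, Myl2 and Actc1 had the highest means. They averaged 13.38, 13.35 and 13.39 in embryonic fibroblasts and 13.82, 13.66 and 13.73 in cardiomyocytes. These 3 differences did not pass the test described below (limma adjusted p = 0.328, 0.537 and 0.298), while the other 9 markers were lower in embryonic fibroblasts. RMA values have no zero, so no marker can be called absent. Transcripts of the sex chromosomes also differed. The Y-linked Eif2s3y stood at 4.67 to 5.1 in adult fibroblasts, 8.43 to 8.53 in embryonic fibroblasts and 8.51 to 9.33 in cardiomyocytes, Kdm5d at 6.48 to 6.87, 8.17 to 8.31 and 8.10 to 9.12, and Uty at 5.24 to 5.56, 7.84 to 8.22 and 8.06 to 8.61. Xist, from the inactive X chromosome, stood at 11.54 to 11.92, 10.84 to 11.04 and 10.49 to 11.16 in the same order. Age and the sex of the animals therefore cannot be told apart in any comparison of adult with embryonic arrays, for all genes below.

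Ptn was highest in embryonic fibroblasts, and Gpc3 was high in both embryonic preparations and low in adult fibroblasts. Sdc2 and Sdc4 had their highest means in adult fibroblasts. Gpc6 was higher and Gpc4 lower in both fibroblast groups than in cardiomyocytes, though the Gpc4 call for embryonic fibroblasts was lost when some arrays were left out. Sdc1 and Gpc1 varied little.

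**Figure D1:**
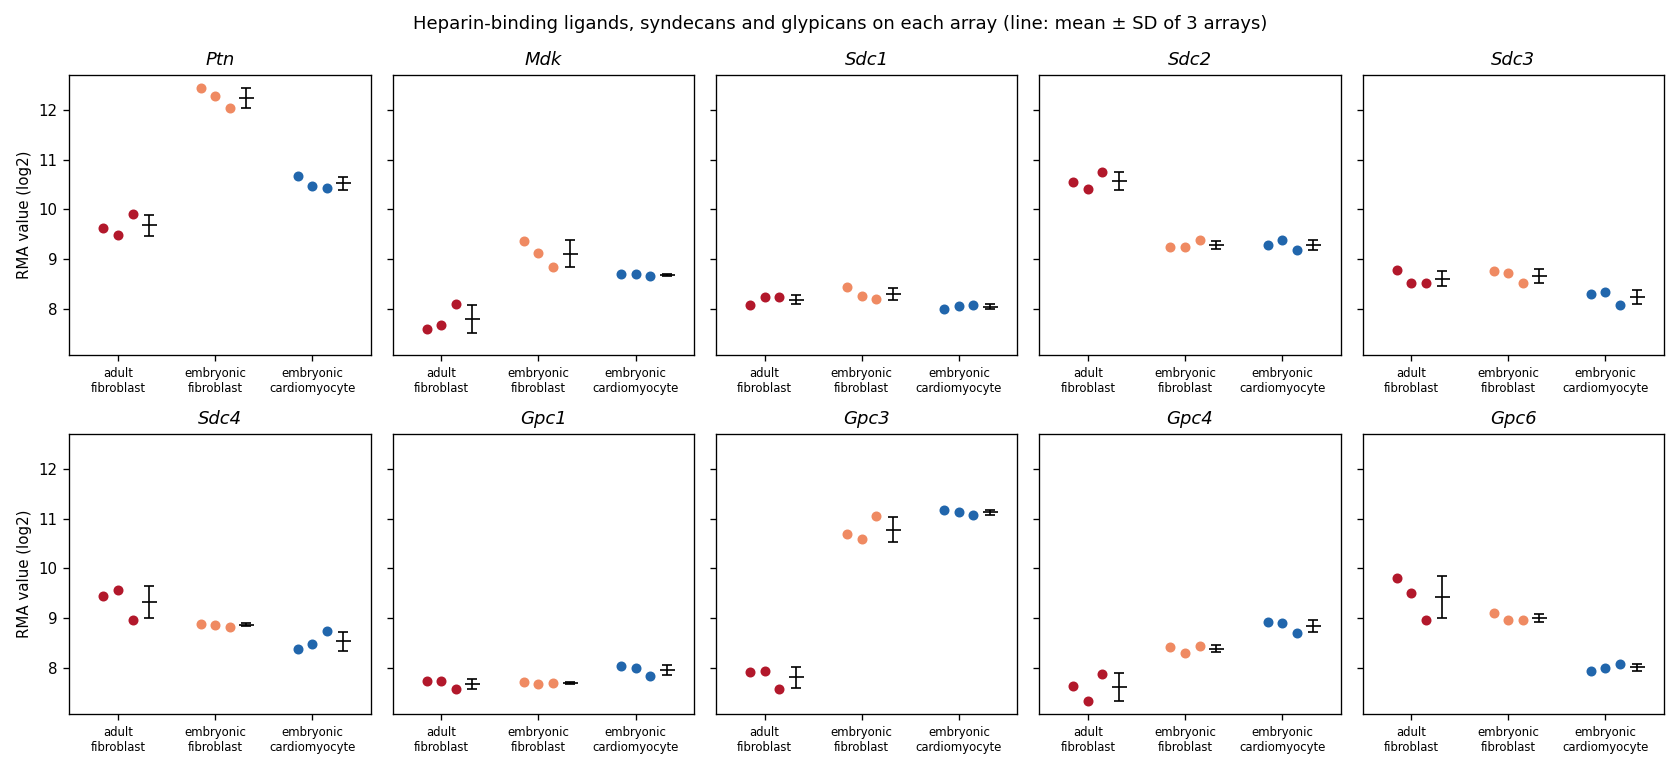
RMA values (log2) of the 10 genes on each of the 9 arrays, with adult fibroblasts, embryonic fibroblasts and embryonic cardiomyocytes from left to right; points are arrays and the black lines give the mean ± SD of 3 arrays. Ptn reaches 12.03 to 12.43 in embryonic fibroblasts, and Gpc3 lies at 7.57 to 7.94 in adult fibroblasts against 10.59 to 11.16 on the embryonic arrays.

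Pleiotrophin RNA showed the largest difference between embryonic fibroblasts and cardiomyocytes among the 10 genes. Ptn stood at 9.63, 9.50 and 9.92 in adult fibroblasts, 12.43, 12.28 and 12.03 in embryonic fibroblasts, and 10.68, 10.47 and 10.42 in cardiomyocytes (replicates 1 to 3 in each group). The 3 groups did not overlap, and the order was embryonic fibroblasts, cardiomyocytes, adult fibroblasts from high to low. Ptn was 5.93-fold lower in adult than in embryonic fibroblasts (log2 difference -2.57 ± 0.14, SE, n = 3 per group, limma adjusted p = 3.04e-06). It was 3.31-fold higher in embryonic fibroblasts than in cardiomyocytes (1.73 ± 0.14, adjusted p = 7.32e-05) and 1.79-fold lower in adult fibroblasts than in cardiomyocytes (-0.84 ± 0.14, adjusted p = 0.000968). In RNA from a mixed preparation, fewer cells of a type and less RNA per cell cannot be told apart.

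Midkine, the other ligand, was also lower in adult than in embryonic fibroblasts, by less. Mdk stood at 7.59, 7.68 and 8.11 in adult fibroblasts, 9.37, 9.13 and 8.83 in embryonic fibroblasts, and 8.70, 8.70 and 8.66 in cardiomyocytes. Adult fibroblasts lay below every embryonic array, and the embryonic fibroblast arrays, although all above the cardiomyocytes, were spread over a wider range than the cardiomyocytes. The gene fell in adult fibroblasts, by 2.49-fold against embryonic fibroblasts (-1.32 ± 0.16, adjusted p = 0.000390) and by 1.86-fold against cardiomyocytes (-0.89 ± 0.16, adjusted p = 0.00165). Between embryonic fibroblasts and cardiomyocytes the difference of 0.42 ± 0.16 did not pass the test (adjusted p = 0.0946). It passed without adult replicate 3 (adjusted p = 0.0298), without embryonic fibroblast replicate 3 (0.56, adjusted p = 0.0357), in a fit of the embryonic groups alone (adjusted p = 0.0486) and with array weights (adjusted p = 0.00760).

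The ligands were also compared within arrays. On each array the Ptn value was set against the Mdk value, and this difference was 1.89 ± 0.14 in adult fibroblasts, 3.14 ± 0.07 in embryonic fibroblasts and 1.84 ± 0.12 in cardiomyocytes (mean ± SD, n = 3 arrays each). The probes bind with different strength, so only the change of this difference between groups can be read, not its size. Whether the paired probes respond alike over the RMA scale was not tested, here or for the pairs below. It differed among the groups in an exact permutation test over the arrays (p = 0.0179, adjusted p = 0.0298 over 5 such pairs of genes). The smallest p that the assignments of the arrays to groups can give is 0.00357. Without adult replicate 1 or without cardiomyocyte replicate 2, the adjusted p of the exact test was 0.0536.

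The promoter of Ptn is shown because this gene had the largest difference among the ligands, and the promoters of Gpc3 and Gpc4 because the values of these neighbouring glypican genes, described further on, changed by unequal amounts. RefSeq windows of build GRCm38.p6 were found for 6 of the 10 genes. Each sequence gives the 250 bases before the annotated start, 5′ to 3′ on the gene's own strand, here the minus strand for all 3, with each CpG dinucleotide in capitals. The windows lie at chr6:36810180-36810429, chrX:52613975-52614224 and chrX:52164924-52165173, in the order printed.
Ptn: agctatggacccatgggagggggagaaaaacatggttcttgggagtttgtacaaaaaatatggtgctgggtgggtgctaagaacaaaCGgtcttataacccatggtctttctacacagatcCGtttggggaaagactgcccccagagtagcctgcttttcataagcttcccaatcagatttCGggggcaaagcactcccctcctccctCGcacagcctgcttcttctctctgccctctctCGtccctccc
Gpc3: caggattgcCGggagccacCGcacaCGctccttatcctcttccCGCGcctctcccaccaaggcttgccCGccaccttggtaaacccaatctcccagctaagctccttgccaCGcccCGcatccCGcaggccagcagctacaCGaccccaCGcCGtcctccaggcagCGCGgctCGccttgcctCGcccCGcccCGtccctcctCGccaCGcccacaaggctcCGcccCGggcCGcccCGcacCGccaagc
Gpc4: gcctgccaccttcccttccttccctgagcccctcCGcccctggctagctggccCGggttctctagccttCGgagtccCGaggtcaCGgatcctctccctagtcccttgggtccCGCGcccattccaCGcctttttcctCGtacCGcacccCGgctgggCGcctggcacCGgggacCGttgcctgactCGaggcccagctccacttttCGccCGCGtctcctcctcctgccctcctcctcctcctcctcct
The window of Ptn holds 5 CpG, that of Gpc3 25 and that of Gpc4 18, where the median of all 32851 windows was 6. At least as many CpG as before Gpc3 were found in 10.7% of windows, and as many as before Gpc4 in 21.7%. The letters GGGCGG, a GC box, or CCGCCC on the other strand occur 3 times before Gpc3, once before Gpc4 and not before Ptn, while 32.7% of all windows hold them. These are descriptions of the letters only.

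Syndecans are the transmembrane carriers. Sdc2, the syndecan of mesenchymal cells, was the member of this family with the largest difference. It stood at 10.56, 10.41 and 10.76 in adult fibroblasts, 9.25, 9.24 and 9.39 in embryonic fibroblasts, and 9.29, 9.38 and 9.18 in cardiomyocytes. Every adult array lay above every embryonic array, and the embryonic groups overlapped. Sdc2 rose in adult fibroblasts by 2.44-fold over embryonic fibroblasts (1.29 ± 0.10, adjusted p = 3.38e-05) and by 2.46-fold over cardiomyocytes (1.30 ± 0.10, adjusted p = 9.50e-06). Embryonic fibroblasts minus cardiomyocytes gave 0.01 ± 0.10 (adjusted p = 0.968).

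Sdc4, which takes part in focal adhesions, stood at 9.44, 9.57 and 8.96 in adult fibroblasts, 8.89, 8.87 and 8.83 in embryonic fibroblasts, and 8.38, 8.47 and 8.75 in cardiomyocytes. The 3 groups did not overlap, with adult replicate 3 close to the embryonic fibroblasts. Sdc4 was 1.73-fold higher in adult fibroblasts than in cardiomyocytes (0.79 ± 0.15, adjusted p = 0.00289). The difference between adult and embryonic fibroblasts, 0.46 ± 0.15, did not pass (adjusted p = 0.0679). Without adult replicate 3 it was 0.64 and passed (adjusted p = 0.00266), and it also passed after quantile normalization (adjusted p = 0.0252) and with array weights (adjusted p = 0.00222). Embryonic fibroblasts minus cardiomyocytes gave 0.33 ± 0.15 (adjusted p = 0.187), or adjusted p = 0.0368 without adult replicate 3 and 0.0185 with array weights.

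Sdc3, the syndecan first known from nervous tissue and a receptor for pleiotrophin there, was alike in both fibroblast groups and lower in cardiomyocytes. It stood at 8.78, 8.53 and 8.51 in adult fibroblasts, 8.76, 8.73 and 8.51 in embryonic fibroblasts, and 8.31, 8.34 and 8.08 in cardiomyocytes. Neither fibroblast group overlapped with the cardiomyocytes. The gene was 1.35-fold higher in embryonic fibroblasts than in cardiomyocytes (0.43 ± 0.11, adjusted p = 0.0239) and 1.29-fold higher in adult fibroblasts than in cardiomyocytes (0.37 ± 0.11, adjusted p = 0.0297). The embryonic call was lost without embryonic fibroblast replicate 1 (adjusted p = 0.0930) or 2 (adjusted p = 0.0887), or without cardiomyocyte replicate 1 (adjusted p = 0.0505) or 3 (adjusted p = 0.0815). The adult call was lost without adult replicate 1 (adjusted p = 0.102), or without cardiomyocyte replicate 1 (adjusted p = 0.0525) or 3 (adjusted p = 0.101).

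Sdc1, best known from epithelia and plasma cells, ranged from 7.99 to 8.44 over the 9 arrays. Its means were 8.18 ± 0.09 in adult fibroblasts, 8.30 ± 0.12 in embryonic fibroblasts and 8.05 ± 0.05 in cardiomyocytes (SD, n = 3 each), and none of its 3 differences passed the test (adjusted p = 0.396, 0.0666 and 0.261 for adult against embryonic fibroblasts, embryonic fibroblasts against cardiomyocytes and adult fibroblasts against cardiomyocytes). With array weights the difference between embryonic fibroblasts and cardiomyocytes passed (adjusted p = 0.0209). A missed threshold does not show that levels were equal.

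By sequence Sdc1 and Sdc3 form one subfamily and Sdc2 and Sdc4 the other. Within arrays, Sdc2 minus Sdc4 was 1.25 ± 0.49 in adult fibroblasts, 0.43 ± 0.11 in embryonic fibroblasts and 0.75 ± 0.27 in cardiomyocytes, which differed among groups (exact permutation test p = 0.0357, adjusted p = 0.0446 over the 5 pairs). Adult replicate 3 had the highest of these values, 1.80, and without it the adjusted p of the exact test was 0.161. The call was also lost without adult replicate 1 (exact test, adjusted p = 0.0536), without any 1 of the embryonic fibroblast arrays (adjusted p = 0.116 to 0.138), and without cardiomyocyte replicate 1 or 2 (adjusted p = 0.107). For Sdc1 minus Sdc3 the values were -0.42 ± 0.24, -0.37 ± 0.09 and -0.19 ± 0.17 in the same order of groups, and the exact test was not passed (p = 0.396).

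Among the glypicans, Gpc3 had the largest difference of all 10 genes. Gpc3, which restrains hedgehog signalling and whose loss in people causes an overgrowth syndrome, stood at 7.91, 7.94 and 7.57 in adult fibroblasts, 10.69, 10.59 and 11.05 in embryonic fibroblasts, and 11.16, 11.13 and 11.07 in cardiomyocytes. The adult arrays lay far below all embryonic arrays, and the embryonic groups were close without overlapping. Gpc3 was 7.84-fold lower in adult than in embryonic fibroblasts (-2.97 ± 0.14, adjusted p = 1.50e-06) and 9.97-fold lower in adult fibroblasts than in cardiomyocytes (-3.32 ± 0.14, adjusted p = 2.64e-07). Embryonic fibroblasts minus cardiomyocytes gave -0.35 ± 0.14, which did not pass (adjusted p = 0.114) but did without embryonic fibroblast replicate 3 (-0.48, adjusted p = 0.0238) and with array weights (adjusted p = 0.00728).

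Gpc4, the gene next to Gpc3 on the X chromosome with 0 annotated genes between them, was also lower in adult than in embryonic fibroblasts. It stood at 7.63, 7.32 and 7.88 in adult fibroblasts, 8.42, 8.30 and 8.43 in embryonic fibroblasts, and 8.92, 8.89 and 8.70 in cardiomyocytes. The 3 groups were separate and ordered cardiomyocytes, embryonic fibroblasts, adult fibroblasts from high to low. Gpc4 was 1.71-fold lower in adult than in embryonic fibroblasts (-0.77 ± 0.13, adjusted p = 0.00308) and 2.34-fold lower in adult fibroblasts than in cardiomyocytes (-1.23 ± 0.13, adjusted p = 7.43e-05). It was 1.37-fold lower in embryonic fibroblasts than in cardiomyocytes (-0.45 ± 0.13, adjusted p = 0.0401). That last call was lost without adult replicate 1 (adjusted p = 0.0564), without embryonic fibroblast replicate 1, 2 or 3 (adjusted p = 0.0933, 0.135 and 0.0738), and without cardiomyocyte replicate 1 or 2 (adjusted p = 0.131 and 0.127).

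Gpc3 minus Gpc4 within arrays was 0.19 ± 0.47 in adult fibroblasts, 2.39 ± 0.20 in embryonic fibroblasts and 2.29 ± 0.08 in cardiomyocytes. These values differed among groups (exact permutation test p = 0.0179, adjusted p = 0.0298). The adjusted p of the exact test was 0.0595 without embryonic fibroblast replicate 3 and 0.0536 without cardiomyocyte replicate 2. In adult fibroblasts Gpc3 (mean 7.80) and Gpc4 (7.61) both lay near the medians of those arrays over all probes, 7.605 to 7.649. Their means in embryonic fibroblasts were 10.78 and 8.38. The part of the low end of the scale in the unequal changes was not tested. Both genes are X-linked, and the Y-linked transcripts and Xist moved between the same groups, as given above. Their part in the result was not tested.

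Gpc6, a glypican whose loss in people impairs the growth of long bones, was higher in both fibroblast groups than in cardiomyocytes. It stood at 9.81, 9.50 and 8.97 in adult fibroblasts, 9.09, 8.96 and 8.95 in embryonic fibroblasts, and 7.94, 7.99 and 8.08 in cardiomyocytes. All 6 fibroblast arrays lay above the cardiomyocytes, and the fibroblast groups overlapped at adult replicate 3. Gpc6 was 2.67-fold higher in adult fibroblasts than in cardiomyocytes (1.42 ± 0.18, adjusted p = 0.000180) and 1.99-fold higher in embryonic fibroblasts than in cardiomyocytes (1.00 ± 0.18, adjusted p = 0.00363). Adult minus embryonic fibroblasts gave 0.42 ± 0.18 (adjusted p = 0.144), and 0.65 without adult replicate 3 (adjusted p = 0.00190). That difference also passed with array weights.

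Gpc4 and Gpc6 belong to the same glypican subfamily, and their differences had opposite signs in all 3 comparisons. The 2 genes were called together only against cardiomyocytes, where the Gpc4 call for embryonic fibroblasts was lost without some arrays, as given above. Gpc4 minus Gpc6 within arrays was -1.81 ± 0.63 in adult fibroblasts, -0.62 ± 0.08 in embryonic fibroblasts and 0.83 ± 0.19 in cardiomyocytes. The 9 arrays fell into 3 separate ranges, and the exact permutation test gave the smallest p it can (p = 0.00357, adjusted p = 0.0179). Adult replicate 3, at -1.08, lay nearest to the embryonic fibroblasts, and replicates 1 and 2 both stood at -2.18.

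**Figure D2:**
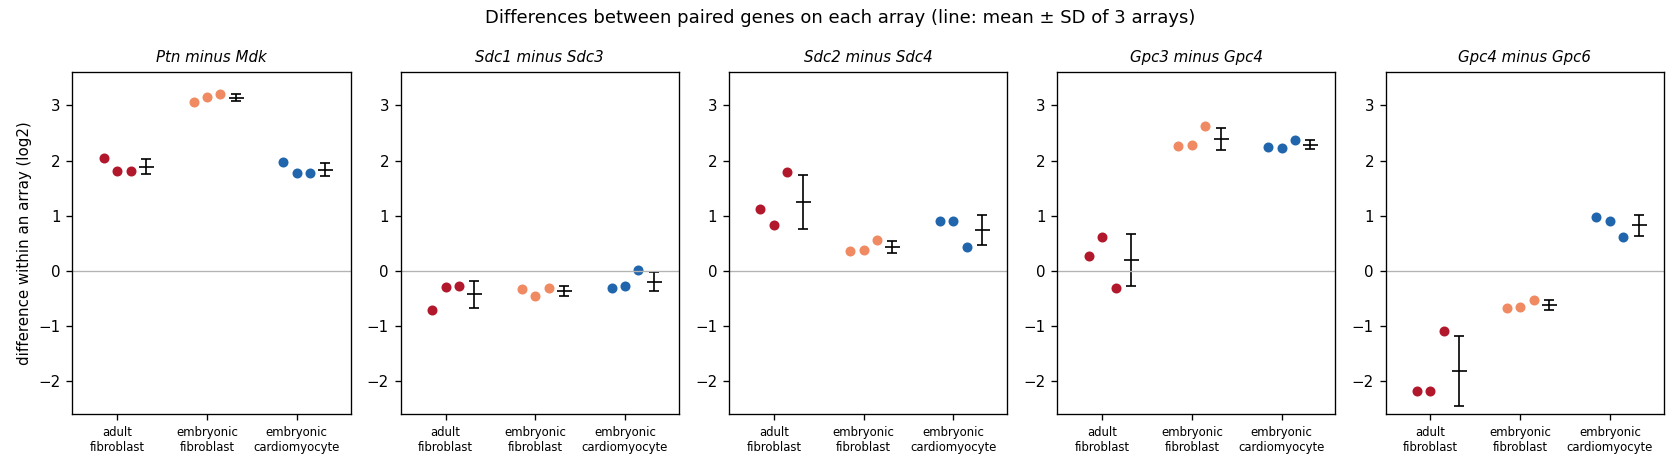
Difference (log2) between the paired genes on each array, for adult fibroblasts, embryonic fibroblasts and embryonic cardiomyocytes from left to right; points are arrays and the black lines give the mean ± SD of 3 arrays. Gpc4 minus Gpc6 separates all 3 groups, Ptn minus Mdk is high in embryonic fibroblasts (3.14) and Gpc3 minus Gpc4 is low in adult fibroblasts (0.19).

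Gpc1, a widely expressed glypican, ranged from 7.56 to 8.03. It averaged 7.68 ± 0.10 in adult fibroblasts, 7.69 ± 0.02 in embryonic fibroblasts and 7.95 ± 0.10 in cardiomyocytes. It was 1.21-fold lower in adult fibroblasts than in cardiomyocytes (-0.28 ± 0.08, adjusted p = 0.0267), a call lost in a fit of those groups alone (adjusted p = 0.0626), without adult replicate 3 (adjusted p = 0.0614), and without cardiomyocyte replicate 1 or 2 (adjusted p = 0.0909 and 0.0880). Embryonic fibroblasts minus cardiomyocytes gave -0.26 ± 0.08 (adjusted p = 0.0525), which passed without adult replicate 3 (adjusted p = 0.0252), without cardiomyocyte replicate 3 (adjusted p = 0.0339), in a fit of those groups alone (adjusted p = 0.0382), without dim genes (adjusted p = 0.0432) and with array weights (adjusted p = 0.00813). Gpc2 and Gpc5, the glypicans outside the list, ranged from 7.72 to 7.98 and from 6.39 to 6.78, and none of their differences passed (adjusted p from 0.470 to 0.945). Gpc5 was below the 30th percentile of all probe means.

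Counted over the 10 genes, the comparison of adult with embryonic fibroblasts called 4 lower (Ptn, Mdk, Gpc3 and Gpc4) and 1 higher (Sdc2), where 11.2% of all genes were called lower and 8.34% higher. Between embryonic fibroblasts and cardiomyocytes 3 were higher (Ptn, Sdc3 and Gpc6), beside 10.3% of all genes, and 1 was lower (Gpc4), beside 11.1%. Between adult fibroblasts and cardiomyocytes 4 were higher (Sdc2, Sdc3, Sdc4 and Gpc6), beside 17.4% of all genes, and 5 were lower (Ptn, Mdk, Gpc1, Gpc3 and Gpc4), beside 18.2%. The medians over the 10 genes were -0.09, 0.29 and -0.07 in the 3 comparisons, beside 0.04, -0.0003 and 0.06 over all genes. Each group enters 2 of the 3 comparisons, so these are not independent. Without adult replicate 3, the count of higher genes was 3 between adult and embryonic fibroblasts and 5 between embryonic fibroblasts and cardiomyocytes, and 2 were lower in that last comparison. The counts over all genes moved too. As each array was left out, 1188 to 2251 of all genes were higher in adult than in embryonic fibroblasts (1662 with all arrays). In embryonic fibroblasts against cardiomyocytes 1448 to 2720 were higher (2054 with all arrays) and 1452 to 2830 lower (2212).

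**Figure D3:**
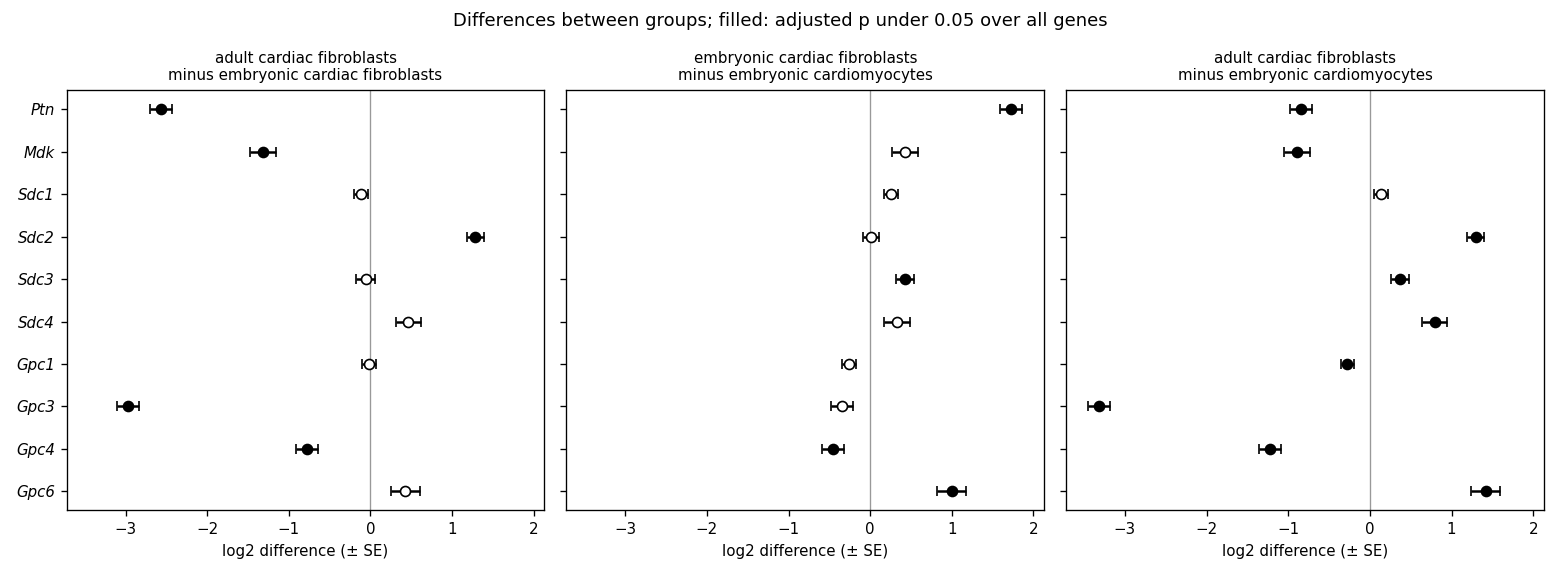
Log2 difference ± SE of each of the 10 genes in the 3 comparisons, with genes down the page; filled points passed an adjusted p of 0.05 over all genes, and positive values mean higher in the group named first. The largest values are those of Gpc3 (-2.97 and -3.32) and Ptn (-2.57 and 1.73).

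Markers of other cells moved with the same comparisons. In adult against embryonic fibroblasts 12 of 12 cardiomyocyte markers and 9 of 12 epicardial and mesothelial markers fell, beside 11.2% of all genes, and 6 of 13 macrophage markers rose, beside 8.34%. The epicardial and mesothelial list averaged 7.47 to 7.62 in adult fibroblasts, 8.31 to 8.56 in embryonic fibroblasts and 7.76 to 7.79 in cardiomyocytes. The macrophage list averaged 8.74 to 9.49, 8.09 to 8.47 and 7.45 to 7.51 in the same groups. In embryonic fibroblasts against cardiomyocytes 10 of 12 endothelial, 9 of 13 macrophage, 6 of 12 epicardial and mesothelial and 12 of 12 fibroblast markers rose, beside 10.3% of all genes. In that comparison 9 of 12 cardiomyocyte markers fell, beside 11.1%. The endothelial list averaged 8.71 to 9.77 in adult fibroblasts, 9.33 to 9.79 in embryonic fibroblasts and 8.32 to 8.70 in cardiomyocytes. The smooth muscle and pericyte list averaged 8.22 to 8.71, 8.95 to 9.02 and 9.08 to 9.21 in the same order of groups, the Schwann and glial list 7.17 to 7.43, 7.05 to 7.14 and 7.20, and the erythroid list 7.0 to 7.13, 7.98 to 8.02 and 8.53 to 8.68. Single erythroid genes differed by more than this mean. Hbb-y averaged 6.52, 11.32 and 12.76 and Hba-x 7.58, 8.82 and 10.55 in that order of groups, while Alas2 averaged 8.02, 8.05 and 8.03. In adult against embryonic fibroblasts, where 11.2% of all genes fell and 8.34% rose, 5 of 12 smooth muscle and pericyte markers fell and 2 rose. Acta2 (-2.59 ± 0.37), Cnn1 (-2.22 ± 0.19), Mcam (-1.64 ± 0.11), Des (-1.46 ± 0.14) and Tagln (-0.82 ± 0.18) fell, while Rgs5 (2.29 ± 0.31) and Myh11 (1.02 ± 0.31) rose. Acta2, Cnn1, Mcam and Des had their highest means in cardiomyocytes (12.02, 11.84, 10.62 and 10.06). In the same comparison 3 of 7 erythroid markers fell and 0 rose, and of 8 Schwann and glial markers 1 rose and 1 fell. The part of these cells in the levels of Ptn, Mdk and the carriers was not tested.

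The genes most like each ligand were looked up by the root mean square difference between values centred on the gene's mean over the 9 arrays. For Ptn they were Fn1, the gene of fibronectin (0.19), the mesenchymal cadherin gene Cdh11 (0.19), Hapln1, which encodes a link protein of hyaluronan (0.23), Adgrg6 (0.28) and Egfl6 (0.28). Each of the 5 was, as Ptn, highest in embryonic fibroblasts, with log2 differences of -1.96 to -2.46 for adult against embryonic fibroblasts and 1.39 to 1.51 for embryonic fibroblasts against cardiomyocytes. For Mdk they were Gap43 (0.12), Flrt2 (0.13), Ptpn14 (0.17), the keratin gene Krt18 (0.18), which is also in the epicardial and mesothelial marker list, and Igfbp5 (0.18). The log2 differences of these 5 were -1.20 to -1.58 and 0.26 to 0.64 in the same comparisons. The genes were picked for this likeness on the same 9 arrays, so differences close to those of the ligand follow from the choice. The lists were not tested.

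Of 10 listed receptors of the ligands, 1 rose and 2 fell in adult against embryonic fibroblasts, close to the 8.34% and 11.2% of all genes, with a median of 0.01 beside 0.04 for all genes. Ptprz1 and Alk, named above, were not called in any comparison. In adult fibroblasts, embryonic fibroblasts and cardiomyocytes Ptprz1 averaged 5.72, 5.84 and 5.69, below the 30th percentile of 6.91, and Alk 7.29, 7.20 and 7.20. Lrp1, an endocytic receptor that binds midkine, stood at 10.38 ± 0.40 in adult fibroblasts and 8.86 ± 0.12 in embryonic fibroblasts (1.52 ± 0.17, adjusted p = 0.000290). The laminin receptor subunit Itga6 fell (-1.66 ± 0.43, adjusted p = 0.0242), with an SD of 1.10 among the adult arrays, and Itga4 fell (-0.71 ± 0.21). Against cardiomyocytes, 4 receptors rose and 0 fell in embryonic fibroblasts (10.3% and 11.1% of all genes), namely Itgav (1.77 ± 0.17), Itga4 (0.94 ± 0.21), Notch2 (0.69 ± 0.15) and Lrp1 (0.63 ± 0.17), with a list median of 0.49 beside -0.0003. In adult fibroblasts against cardiomyocytes 5 rose and 0 fell (17.4% and 18.2% of all genes), led by Lrp1 (2.14 ± 0.17), Itgav (1.71 ± 0.17), Notch2 (0.86 ± 0.15) and Itgb3 (0.70 ± 0.18).

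The chains on syndecans and glypicans are begun on a xylose linker and extended by a copolymerase of Ext1 and Ext2. Of 11 genes of these steps, 3 rose and 2 fell in adult against embryonic fibroblasts, beside 8.34% and 11.2% of all genes. Extl3, which starts the chain, rose (0.68 ± 0.15, adjusted p = 0.0118), as did Xylt1, which adds the xylose (0.59 ± 0.10), while the xylose kinase gene Fam20b (-0.80 ± 0.14) and Ext2 (-0.55 ± 0.11) fell. In embryonic fibroblasts against cardiomyocytes 2 rose and 2 fell (10.3% and 11.1% of all genes), and Extl3 stood at 7.70 ± 0.30 in embryonic fibroblasts and 8.91 ± 0.20 in cardiomyocytes (-1.21 ± 0.15, adjusted p = 0.000662). Ext1 rose in the same comparison (0.85 ± 0.19), as did Xylt1 (0.36 ± 0.10), and Extl2 fell (-0.55 ± 0.14). In adult fibroblasts against cardiomyocytes 2 rose, Ext1 (1.23 ± 0.19) and Xylt1 (0.95 ± 0.10), and 5 fell, among them Fam20b (-1.10 ± 0.14) and Extl3 (-0.52 ± 0.15), beside 17.4% of all genes higher and 18.2% lower. The medians of the list were 0.17, -0.13 and 0.05 in the 3 comparisons.

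Sulfation sets which factors a chain binds, and 17 of 18 listed genes of sulfation and epimerization were named on the arrays. In adult against embryonic fibroblasts 3 rose and 4 fell, beside 8.34% and 11.2% of all genes. Papss2, which makes the sulfate donor, stood at 10.23 ± 0.26 in adult fibroblasts and 8.62 ± 0.30 in embryonic fibroblasts (1.61 ± 0.18, adjusted p = 0.000237), while its paralog Papss1 fell (-0.64 ± 0.12). The sulfotransferase gene Hs6st2, which acts on the 6-O position, fell (-1.17 ± 0.12, adjusted p = 0.000189; its deposited value was the same on all 3 cardiomyocyte arrays), as did Ndst3 (-0.53 ± 0.09), whose mean over the arrays was below the 30th percentile of 6.91. In embryonic fibroblasts against cardiomyocytes 6 rose and 0 fell (10.3% and 11.1% of all genes), led by Papss2 (0.96 ± 0.18), the epimerase gene Glce (0.94 ± 0.09), Ndst3 (0.61 ± 0.09) and Ndst2 (0.58 ± 0.13). In adult fibroblasts against cardiomyocytes 6 rose and 2 fell (17.4% and 18.2% of all genes), with Papss2 (2.57 ± 0.18), Glce (1.47 ± 0.09), Ndst2 (0.82 ± 0.13) and Hs3st3a1 (0.81 ± 0.23). The medians were 0.14, 0.13 and 0.14.

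Finished chains are trimmed outside the cell, and the core proteins are shed by proteases. The 6-O-endosulfatase genes Sulf1 and Sulf2 went opposite ways against cardiomyocytes. Sulf1 stood at 11.06 ± 0.22 in adult fibroblasts, 10.01 ± 0.26 in embryonic fibroblasts and 8.35 ± 0.30 in cardiomyocytes, and Sulf2 at 8.43 ± 0.11, 8.80 ± 0.22 and 9.84 ± 0.08. Sulf1 rose in all 3 comparisons (1.05 ± 0.18 in adult against embryonic fibroblasts, 1.66 ± 0.18 in embryonic fibroblasts against cardiomyocytes and 2.71 ± 0.18 in adult fibroblasts against cardiomyocytes). Sulf2 fell against cardiomyocytes in embryonic (-1.03 ± 0.12) and adult fibroblasts (-1.40 ± 0.12). The sheddase genes Adam10 and Adam17 went opposite ways: in adult against embryonic fibroblasts Adam10 fell (-1.09 ± 0.12, adjusted p = 0.000201) and Adam17 rose (1.05 ± 0.09, adjusted p = 4.26e-05). Hpse2, a heparanase relative, fell in the same comparison (-0.77 ± 0.14), with a mean over the arrays below the 30th percentile of 6.91. Mmp14 rose in embryonic (0.90 ± 0.20) and adult fibroblasts (0.92 ± 0.20) against cardiomyocytes. Of the 12 genes, 2 rose and 2 fell in adult against embryonic fibroblasts, 4 rose and 1 fell in embryonic fibroblasts against cardiomyocytes, and 4 rose and 2 fell in the remaining comparison, with medians of 0.007, 0.19 and 0.09. The shares of all genes that rose and fell were 8.34% and 11.2%, 10.3% and 11.1%, and 17.4% and 18.2% in these comparisons.

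**Figure D4:**
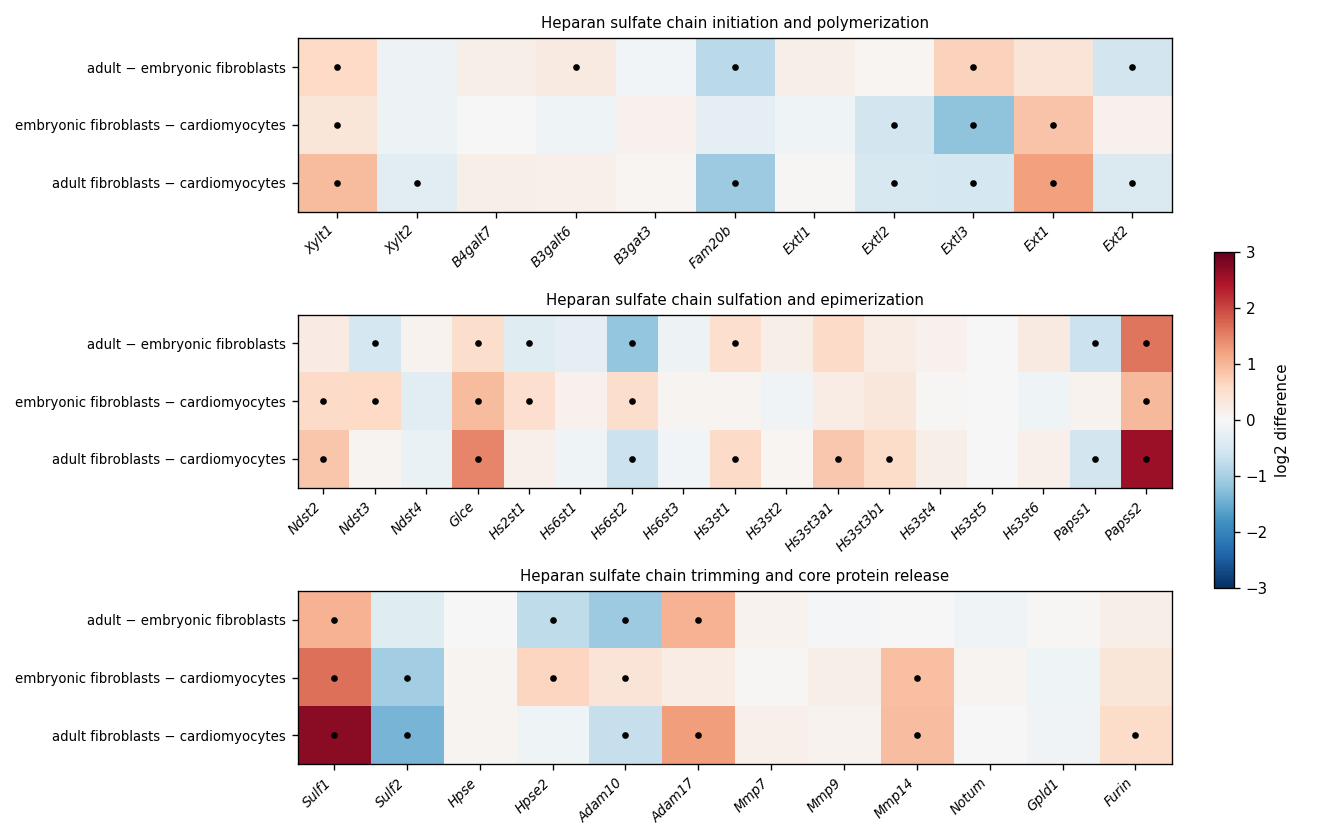
Log2 differences (colour, red higher and blue lower in the group named first) of the listed genes that start, sulfate and trim heparan sulfate chains or release their carriers, with the 3 comparisons as rows; black dots mark an adjusted p under 0.05 over all genes. Papss2 and Sulf1 are the darkest in adult fibroblasts against cardiomyocytes (2.57 and 2.71), and Sulf2 and Fam20b are lower there (-1.40 and -1.10).

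Of the 9 other carriers of such chains, 3 rose and 2 fell in adult against embryonic fibroblasts, 4 rose and 0 fell in embryonic fibroblasts against cardiomyocytes, and 3 rose and 2 fell in adult fibroblasts against cardiomyocytes (medians 0.11, 0.17 and 0.12). Over all genes the shares higher and lower were 8.34% and 11.2%, 10.3% and 11.1%, and 17.4% and 18.2%. Srgn, the proteoglycan of blood cell granules, rose most (2.15 ± 0.26, 2.03 ± 0.26 and 4.17 ± 0.26 in that order of comparisons), next to the macrophage markers given above. Cd44, which carries such chains in some splice forms, rose as well (1.01 ± 0.10, 0.99 ± 0.10 and 2.0 ± 0.10). Agrn (-0.86 ± 0.11) and Nrp1 (-0.57 ± 0.12) fell in adult against embryonic fibroblasts. Agrn (0.38 ± 0.11) and Col18a1 (0.49 ± 0.14) rose in embryonic fibroblasts against cardiomyocytes. Tgfbr3 rose (0.60 ± 0.10) and Nrp1 fell (-0.73 ± 0.12) in adult fibroblasts against cardiomyocytes.

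Of 8 partners of the syndecan tails, 1 rose, Sdcbp2 (0.44 ± 0.12), and 0 fell in adult against embryonic fibroblasts, a count close to the 8.34% of all genes higher there (11.2% were lower). In embryonic fibroblasts against cardiomyocytes, where 10.3% of all genes rose and 11.1% fell, 2 rose, the syntenin gene Sdcbp (0.87 ± 0.12) and Cask (0.62 ± 0.11), and 1 fell, Gipc1 (-0.48 ± 0.12). In adult fibroblasts against cardiomyocytes, where 17.4% of all genes rose and 18.2% fell, 3 rose, Sdcbp (1.00 ± 0.12), Sdcbp2 (0.73 ± 0.12) and Cask (0.68 ± 0.11), and 1 fell, Gipc1 (-0.70 ± 0.12). The medians were 0.06, 0.16 and 0.08. Without adult replicate 3, the partners that fell were 2 in each comparison with cardiomyocytes. The genes called lower over the whole array moved too as each array was left out. They were 1452 to 2830 in embryonic and 3063 to 3790 in adult fibroblasts against cardiomyocytes.

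Of 11 other heparin-binding factors measured, which are growth factors and the chemokine Cxcl12, 6 rose and 2 fell in adult against embryonic fibroblasts (8.34% and 11.2% of all genes, and a median of 0.42 beside 0.04). The largest differences were those of Fgf7 (2.74 ± 0.21, adjusted p = 2.41e-05), Fgf2 (1.67 ± 0.12), Hbegf, which fell (-1.30 ± 0.20), and Cxcl12 (0.76 ± 0.17). In embryonic fibroblasts against cardiomyocytes 4 rose and 2 fell (10.3% and 11.1% of all genes, median 0.12), with Hbegf (2.15 ± 0.20), Fgf2 (0.77 ± 0.12) and Hgf (0.56 ± 0.14) higher and Cxcl12 lower (-1.05 ± 0.17). In adult fibroblasts against cardiomyocytes 5 rose and 1 fell (17.4% and 18.2% of all genes, median 0.20), led by Fgf7 (3.30 ± 0.21), Fgf2 (2.44 ± 0.12), Hgf (1.195 ± 0.14, with a mean over the arrays below the 30th percentile of 6.91) and Hbegf (0.84 ± 0.20). Without adult replicate 3 the number that fell there was 2, while 3063 to 3790 of all genes were lower there as each array was left out. Hbegf, another heparin-binding ligand, was highest in embryonic fibroblasts (10.54 ± 0.45 in adult fibroblasts, 11.84 ± 0.21 in embryonic fibroblasts and 9.70 ± 0.13 in cardiomyocytes). Ptn was also highest in embryonic fibroblasts, but lowest in adult fibroblasts.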

How the data were processed

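Expression was measured in 9 samples, 3 per group, on Affymetrix mouse Gene 1.0 ST arrays, with RNA extracted by Trizol and labelled with biotin, per the labels' protocols. The authors made the deposited log2 values with RMA, per the submitters' processing notes. The log base is not stated; log2 was assumed from the range, 2.70 to 14.20. The RMA version, a joint normalization of all arrays, the genome build and the annotation are each not given in the sources used here. Precision is limited by the 3 arrays per group.

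Groups and replicate numbers came from the titles. Of 28767 probes, 21776 had 1 gene symbol in the platform annotation, 1618 had several and 5373 had none, and the last 2 kinds were not used. Symbols were checked through the Entrez identifier in a RefSeq table of GRCm38.p6, which held 21686 probes and changed 0 symbols. Of several probes the one with the highest mean stood for the gene, giving 19933 genes. Limma 3.58.1 in R 4.3.3 (lmFit, eBayes) was fitted to all 9 arrays with a mean per group and no filter on dim genes. P-values were two-sided and adjusted by Benjamini-Hochberg over all genes, and genes were called at an adjusted p under 0.05. Differences within arrays between 5 pairs of genes were compared by an exact permutation test of the F statistic over all assignments of arrays to groups, adjusted over the pairs. The fit and the permutation test were tested on simulated data.

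The 10 genes, the 7 pathway lists (78 of 80 genes measured), the 8 marker lists, the pairs and the naming rule were chosen with earlier results of these data known. The rule names the 10 genes, Gpc2 and Gpc5, up to 4 called genes with the largest difference per pathway list and comparison, and the 5 genes most like each ligand. Leading markers, also in the rule, are named for the cardiomyocyte, smooth muscle and pericyte, and erythroid lists, a choice made after the values were seen. The other marker lists are given as means. The sex-linked transcripts, Rgs5, Myh11, Des, Tagln, Ptprz1, Alk and the repeated values of Sulf1, Sulf2, Srgn, Cd44 and Hbegf were added after their values were seen. The alternatives tried were a block for the replicate number, median centring, quantile normalization, leaving out dim genes, the mean of all probes of a gene, array weights, only the groups compared, and leaving out each array. For same-numbered arrays of different groups, the correlations of their deviations from the group means lay between -0.20 and 0.20, and 3 of 9 were over 0.1. For arrays with different numbers they lay between -0.22 and 0.19, and 3 of 18 were over 0.1. With 3 arrays per group these values depend on each other and cannot decide whether equal numbers share a source. The labels do not say that equal numbers share an animal, litter or day. The block was therefore not used in the descriptions of the genes, and its results are given only in the closing section. Python 3.11.15 and matplotlib 3.10.9 made the figures.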

Additional observations from a re-analysis of the deposited data

How the results depend on the processing

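Of the 18 differences called among the 30 tested for the 10 genes, 14 were called under all alternatives run and 4 were lost under at least 1 (Sdc3 in both fibroblast groups against cardiomyocytes, Gpc4 and Gpc1; losses other than with the block are given with each gene); 0 changed sign. With the replicate block, no call changed except that of Gpc4 between embryonic fibroblasts and cardiomyocytes (adjusted p = 0.0518, 0 genes of the list lower in place of 1) and that of Sdc2 minus Sdc4 (exact test, adjusted p = 0.139). Array weights raised the counts: 3 of the 10 genes were higher in adult than in embryonic fibroblasts in place of 1, 6 were higher and 3 lower in embryonic fibroblasts than in cardiomyocytes in place of 3 and 1, and over all genes 2519 were higher in adult than in embryonic fibroblasts in place of 1662, and 3103 higher and 3362 lower in embryonic fibroblasts than in cardiomyocytes in place of 2054 and 2212. Quantile normalization gave 2 genes of the list higher in adult than in embryonic fibroblasts. In embryonic fibroblasts against cardiomyocytes 2 were lower without dim genes and 2 with only those groups fitted. Leaving out each array gave 1 to 3 genes of the list higher in adult than in embryonic fibroblasts, and 2 to 5 higher and 0 to 2 lower in embryonic fibroblasts than in cardiomyocytes, with 1452 (without embryonic fibroblast replicate 2) to 2830 of all genes lower there. Of all genes, 1188 to 2251 were higher in the former comparison and 1448 to 2720 in the latter. The adjusted p of the exact test then ran from 0.0223 to 0.0536 for Ptn minus Mdk, from 0.0179 to 0.161 for Sdc2 minus Sdc4 and from 0.0223 to 0.0595 for Gpc3 minus Gpc4. The cause of these changes was not tested, beyond the lower number of arrays or genes that some alternatives use.

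Differences that were not called and lay near 0 changed sign. Sdc3 between adult and embryonic fibroblasts was 0.0177 after quantile normalization. Gpc1 in that comparison was 0.0023 after median centring, 0.0034 after quantile normalization and 0.0306 with array weights, and ran from -0.0447 to 0.0413 when each array was left out. Sdc2 between embryonic fibroblasts and cardiomyocytes was -0.0043 after median centring and -0.0431 with array weights, and ran from -0.0397 to 0.0583 when each array was left out. RMA values carry no background per probe, so none could be called undetected. The counts of listed genes without adult replicate 3 were chosen after seeing the data.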
